A study of Mus musculus with 23 samples.

Results

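The genes described here encode glutathione S-transferases of the alpha, pi, theta and kappa classes: Gsta1, Gsta2, Gsta3 and Gsta4 (alpha), Gstp1 and Gstp2 (pi), Gstt1, Gstt2 and Gstt3 (theta) and Gstk1 (kappa). They were found by gene name among the non-control probes of a mouse liver array. Of the 10 genes, 9 had a probe, 12 probes in all, out of the 21056 genes and 32087 probes that were tested. No probe carried the name or the RefSeq accession of Gsta1, so no level is given for it. All 12 probes were well above background on all 23 arrays and none was saturated.

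The livers came from 23 male mice, each measured on its own 1-colour Agilent array. The question was which liver transcripts respond to pregnenolone 16alpha-carbonitrile (PCN), a synthetic steroid that activates the rodent pregnane X receptor (PXR, gene Nr1i2), and which of these responses need the receptor. WT CONT (6 arrays) were C57BL/6J mice given corn oil, and WT PCN (5 arrays) were C57BL/6J mice given PCN at 100 mg/kg in corn oil by daily intraperitoneal injection for 4 days. Pxr-/- CONT (6 arrays) and Pxr-/- PCN (6 arrays) carried a deletion of the receptor gene in all cells, on a C57BL/6J background, with the same injections. All mice were killed 6 h after the last injection, at ZT6 (6 h after lights on), after 2 weeks of acclimatisation. The WT mice were purchased at 6 weeks of age and the Pxr-/- mice had been bred for 10 years in the study's own facility, so genotype and colony cannot be told apart. Nothing in the labels says whether mice shared a cage or litter, and the p-values measure the spread between these mice.

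Glutathione S-transferases join the tripeptide glutathione to electrophilic compounds, which makes them more water-soluble and ready for export from the cell. The alpha, pi and theta enzymes are cytosolic, whereas the kappa enzyme sits in mitochondria and peroxisomes. Alpha-class enzymes are abundant in hepatocytes and also reduce lipid hydroperoxides, and PXR is known as a regulator of drug-metabolising genes of the cytochrome P450, transferase and transporter families.

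Some alpha-class genes on chromosome 9 resemble one another in sequence, and the sequences show what a probe and a promoter can and cannot separate. Gm10639, an alpha-class gene of the same cluster that is not among the 10, is shown because its probe and upstream region resemble those of Gsta2 and of the unmeasured Gsta1. The probe of Gsta2 (mm9 chr9:78178856-78178915, minus strand) and that of Gm10639 (mm9 chr9:78153243-78153302, plus strand) differed at 1 position over bases 1 to 53, by the substitution T23G (the base of the Gsta2 probe is given first, counted from 1 at the 5′ end), and at 6 positions after that. Bases 9 to 38 of each are given here, with the differing base in capitals:
Gsta2 probe: tactggcctctaatTgtttgcaattataaa
Gm10639 probe: tactggcctctaatGgtttgcaattataaa
This was the only pair, among the 78 pairs of probes compared, that shared a run of 20 bases. How far each probe also binds the transcripts of its neighbours, Gsta1 included, was not tested.

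The 250 bases upstream of the annotated start (RefSeq, GRCm38.p6) were available for 8 of the 10 genes, all but Gsta4 and Gstt2. Those of Gsta1 and Gm10639 were identical at 98.3% of 237 aligned positions, and those of Gsta2 and Gm10639 at 72.3% of 238. The windows of Gsta2 (chr9:78347146-78347395, minus strand) and Gm10639 (chr9:78289678-78289927, plus strand) are printed from 5′ to 3′, since these had the largest PCN differences of the alpha-class genes measured, with the exact runs of at least 12 bases that they share in capitals:
Gsta2 upstream: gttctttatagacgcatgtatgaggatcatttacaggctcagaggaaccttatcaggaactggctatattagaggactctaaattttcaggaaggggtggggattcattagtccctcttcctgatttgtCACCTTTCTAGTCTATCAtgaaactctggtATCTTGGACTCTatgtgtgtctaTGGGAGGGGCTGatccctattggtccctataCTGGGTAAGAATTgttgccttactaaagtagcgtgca
Gm10639 upstream: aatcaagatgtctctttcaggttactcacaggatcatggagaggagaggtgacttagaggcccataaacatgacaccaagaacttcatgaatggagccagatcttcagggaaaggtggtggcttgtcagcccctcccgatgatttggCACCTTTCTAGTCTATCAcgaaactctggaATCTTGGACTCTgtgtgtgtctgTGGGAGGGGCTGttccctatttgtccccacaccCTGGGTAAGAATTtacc
The shared runs cover 55 of the 250 bases in each window, and the longest is 18 bases.

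A pair of motifs known from glutathione transferase genes and 3 arrangements of the nuclear receptor half-site were searched on both strands of these windows. The AP-1-type motif TGAGTCA was found in Gstp1, at bases -74 to -68 from the start, and in Gstp2, at bases -89 to -83, and 4.46% of the 32851 windows of all genes hold it. The stretches around it are nearly the same in both pi genes, with the motif in capitals (Gstp1, chr19:4037960-4038006, Gstp2, chr19:4042284-4042330, both minus strand, GRCm38.p6):
Gstp1 upstream: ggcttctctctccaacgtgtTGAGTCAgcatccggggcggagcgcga
Gstp2 upstream: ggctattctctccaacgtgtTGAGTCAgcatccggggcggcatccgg
The antioxidant-type core TGACNNNGC, which can overlap the AP-1-type motif, was found in Gsta3, at bases -121 to -113 from the start, and in 10.2% of all windows. Pairs of the half-site AGNTCA as a direct repeat with a spacer of 3 bases (0.0517% of all windows) or 4 bases (0.103%) or as an everted repeat with a spacer of 6 bases (0.0304%) were in none of the members' windows. A match describes these letters only, and a missing match says nothing of the factor.

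Across the series, 29510 to 33321 probes per array were well above background. The single probe of Nr1i2 was well above background on every array, with log2 signals of 10.63 to 12.15 in WT CONT and 10.16 to 12.08 in Pxr-/- CONT; its place relative to the deleted part is not given in the sources used here, so it does not check the genotype. Cyp3a11, the classical PXR-regulated cytochrome P450, was 3.55 log2 units higher after PCN in WT mice (adjusted p = 4.12e-10) and 0.31 higher in Pxr-/- mice (adjusted p = 0.431). Cyp2b10 and Cyp2c55, the other PXR reference genes, were 6.76 and 6.26 higher in WT mice by their brightest probes. In Pxr-/- mice they were 1.57 and 0.54 higher and not called (unadjusted p = 0.0276 and 0.0202, adjusted p = 0.166 and 0.14). Cyp2c55 was also called higher in Pxr-/- CONT than in WT CONT (2.80, adjusted p = 1.53e-07). All 8 hepatocyte markers were well above background on every array, at the 78.33 to 99.99 percentile of probe signals, the highest of them Alb and Serpina1a. Levels below are quantile-normalised log2 median signals, so that a difference is a log2 fold change. They are compared between groups for the same probe and not between probes. A difference was called at an adjusted p of 0.05 or less in the limma fit over all probes and a fold change above 1.5.

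After PCN, 4 of the 9 measured genes were called in WT mice and 0 by limma in Pxr-/- mice. Without the limit on the fold change 6 and 1 passed. Of all 21056 genes, 2856 then passed higher and 3106 lower in WT mice, and 826 and 917 in Pxr-/- mice. The 4 called in WT mice were Gsta2, Gsta4 and Gstt3, which rose, and Gstt2, which fell by its dimmer probe. That is 3 genes called higher where 4.25% of all genes were, and 1 called lower where 2.83% were. For Pxr-/- mice limma called 0 members in either direction (1.6% of all genes higher, 0.95% lower), although 2 had an unadjusted p below 0.05. The PCN difference was larger in WT than in Pxr-/- mice by the test of the difference itself for 2 genes, Gsta4 and Gstt3 (0.883% of all genes), and for none was it smaller (0.29%). The median PCN difference of the members was 0.05 in WT mice and -0.04 in Pxr-/- mice, against -0.02 and -0.01 over all genes tested. With the authors' deposited values in place of quantile normalisation, the split of all genes called in WT mice moved from 895 higher and 595 lower to 1577 and 303, and the median probe from -0.02 to 0.11; in Pxr-/- mice the split moved from 337 and 200 to 358 and 123, and for the difference from 186 and 61 to 252 and 33. The same 4 members in WT mice and the same 2 for the difference were called under both.

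**Figure D1:**
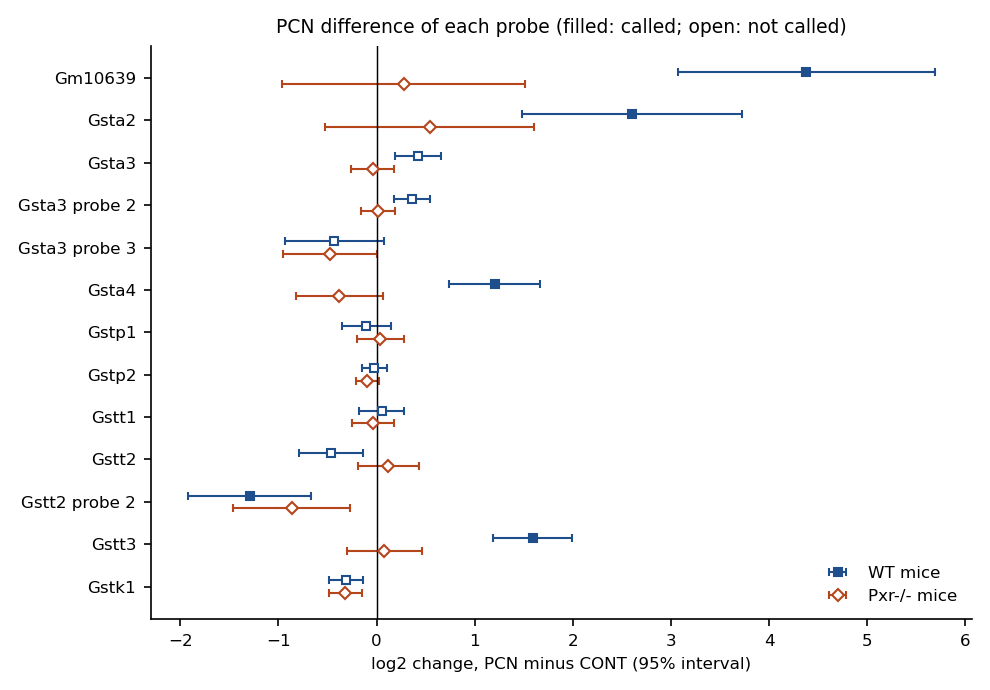
Log2 change after PCN (horizontal axis, PCN minus CONT, with 95% interval) of the 12 probes of the members and of Gm10639, in WT mice (squares) and Pxr-/- mice (diamonds); filled symbols were called and open ones were not. The WT symbols of Gm10639 (4.38), Gsta2 (2.61), Gstt3 (1.59) and Gsta4 (1.20) lie well to the right of zero, while the intervals of these genes in Pxr-/- mice include zero; the dimmer Gstt2 probe (-1.29) is the only filled symbol on the left.

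Gsta2, an alpha-class transferase, had the largest PCN difference of the members. Its log2 signal in the 5 WT PCN mice was 13.28, 14.02, 14.20, 14.95 and 15.33. In WT CONT the lowest of 6 was 9.91, the median 11.78 and the highest 13.70. The lowest PCN mouse lay below the highest CONT mouse, and the other 4 lay above all CONT mice. Gsta2 was 6.09-fold higher after PCN in WT mice (2.61 ± 0.54 log2 units, SE, adjusted p = 0.00149). The arrays were washed in 2 batches, each holding 3 mice of every group except WT PCN, which had 2 in washing batch 2. The difference was 2.55 among the arrays of washing batch 1 (adjusted p = 0.022) and 2.67 in washing batch 2 (adjusted p = 0.0974).

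Gsta2 in the Pxr-/- mice ranged from 11.34 to 13.52 in CONT (median 11.81) and from 11.26 to 13.75 in PCN (median 12.67), with wide overlap. The difference was 0.54 (95% interval -0.53 to 1.61, adjusted p = 0.594). The contrast of the genotypes, 2.06 (95% interval 0.52 to 3.61), had an unadjusted p of 0.0113 and an adjusted p of 0.188 and was not called. Gsta2 thus passed the threshold in WT mice alone, without a called difference between the genotypes. Without 1 array each, this contrast ran from 1.68 (without WT CONT replicate 6, adjusted p = 0.244) to 2.43 (without WT CONT replicate 2, adjusted p = 0.0744) and was called in none of the 23 fits.

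Gm10639 had the largest PCN difference of any alpha-class probe. Its signal was 14.04, 15.14, 15.36, 16.05 and 16.50 in the WT PCN mice, and 9.11 at the lowest, 10.97 at the median and 13.33 at the highest in WT CONT. The groups did not overlap, and Gm10639 was 20.8-fold higher after PCN (4.38 ± 0.63 log2 units, SE, adjusted p = 5.24e-05). The Pxr-/- medians were 11.59 (CONT) and 12.15 (PCN), with a difference of 0.27 (adjusted p = 0.845). Between the genotypes the PCN difference differed by 4.11 (adjusted p = 0.0146), which was called. Since its probe shares most of its bases with that of Gsta2, part of either signal may come from the other transcript or from Gsta1, and these cannot be told apart here.

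Gsta4, whose enzyme prefers 4-hydroxynonenal and other products of lipid peroxidation, rose in WT mice, and by more than in Pxr-/- mice by the test of the difference. Its probe is 60 bases long but spans 1173 bases of mm9 (chr9:78046172-78047344, plus strand), as a probe across an exon junction does. The signal was 10.60, 11.02, 11.23, 11.31 and 11.68 in the WT PCN mice. It was 9.16 at the lowest, 9.96 at the median and 10.57 at the highest in WT CONT. All PCN mice lay above all CONT mice, the closest by a few hundredths of a unit. Gsta4 was 2.31-fold higher (1.20 ± 0.22 log2 units, SE, adjusted p = 5.55e-04). The Pxr-/- signal ran from 10.07 to 10.64 in CONT (median 10.27) and from 9.17 to 10.35 in PCN (median 10.04), and 3 of the 6 PCN mice lay below all CONT mice. That difference was -0.38 (95% interval -0.82 to 0.06, adjusted p = 0.314). The difference between the genotypes was 1.58 (95% interval 0.95 to 2.22, adjusted p = 0.00669). Without any 1 of the 23 arrays it stayed between 1.42 and 1.72 and was called each time, and within washing batches 1 and 2 it was 1.76 and 1.37 (adjusted p = 0.11 and 0.173). Within washing batch 2 the rise of Gsta4 in WT mice was not called either.

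Gsta3 has 3 probes on the array that did not move alike. All lie on the plus strand of mm9, the brightest at chr1:21255189-21255248, the next at chr1:21255043-21255102 and the dimmest further upstream at chr1:21246334-21246393. Gsta3 is an alpha-class enzyme of hepatocytes known for detoxifying aflatoxin epoxide in mice. By the brightest probe Gsta3 read 17.17, 17.34, 17.47, 17.54 and 17.60 in the WT PCN mice. The WT CONT mice ran from 16.87 through a median of 16.99 to 17.34, so that 4 of 5 PCN mice lay above all CONT mice. The difference was 0.42 (adjusted p = 0.00947), a fold change of 1.34 that was below the limit of 1.5 and not called. The next probe gave 0.36 (adjusted p = 0.00444). The dimmest probe, whose target is listed only under an Ensembl transcript, gave -0.43 (adjusted p = 0.221), and -0.61 (adjusted p = 0.0475) without WT CONT replicate 4. The 3 probes gave, for Pxr-/- mice, -0.04, 0.01 and -0.47, with adjusted p of 0.873, 0.955 and 0.241.

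**Figure D2:**
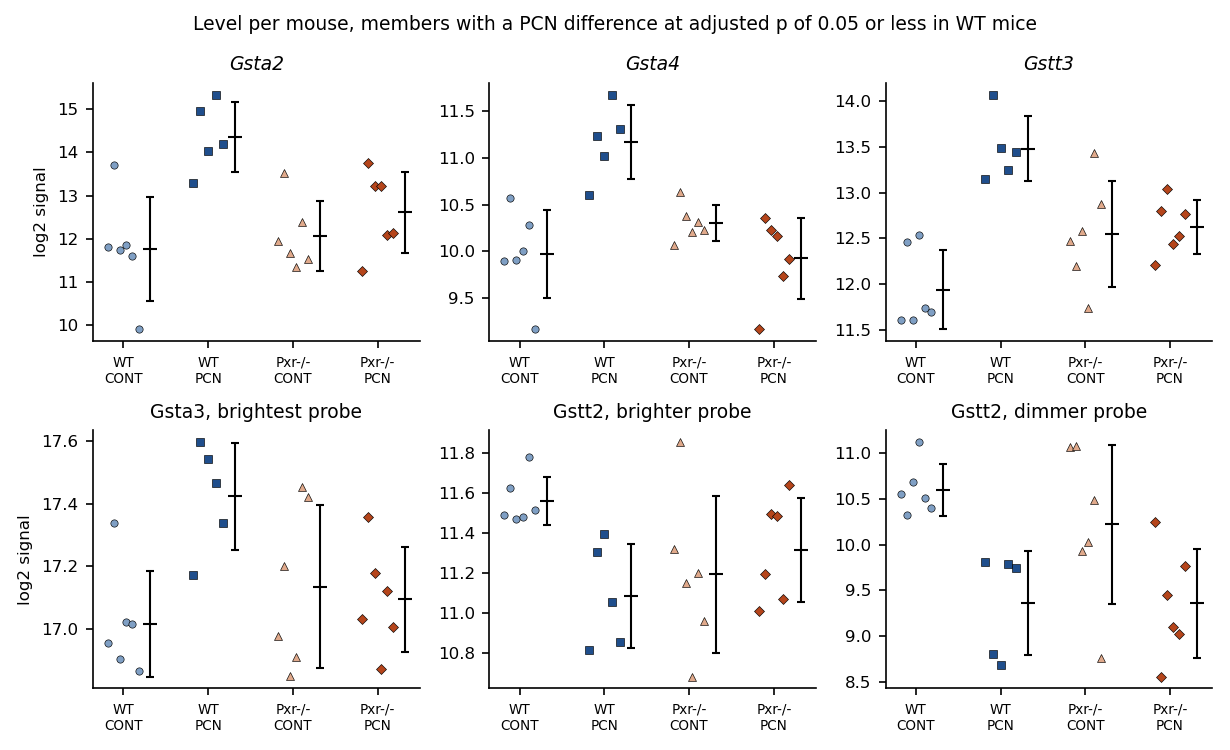
Log2 signal (vertical axis) of each mouse by group for Gsta2, Gsta4, Gstt3, the brightest Gsta3 probe and both Gstt2 probes; the dash and bar beside the points are the mean and SD (n = 6, or 5 for WT PCN). The 5 WT PCN mice lie above all WT CONT mice for Gsta4 and Gstt3 and below all of them for both Gstt2 probes, and only the lowest WT PCN mouse for Gsta2 (13.28) lies below the highest WT CONT mouse (13.70).

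The mice at the ends of each group were compared between genes. In all 4 groups the mouse lowest for Gsta2 was also lowest for Gm10639, and the mouse highest for Gsta2 was highest for both Gm10639 and Gsta4. The lowest mouse was shared by Gsta2 and Gsta4 in 3 of 4 groups. With Gsta3, Gsta2 shared its lowest mouse in 2 groups and its highest in 2. This was not particular to the alpha genes: Gstt1, Gstt3 and Gstt2 by its brighter probe each shared the lowest mouse of Gsta2 in 3 groups and its highest in 1, 0 and 1. Gstk1 shared the lowest in 2 and the highest in 3, Gstp2 the lowest in 1 and the highest in 2, and Gstp1 neither in any group. The spread among untreated mice was wide for Gsta2 (SD 1.20 in WT CONT and 0.80 in Pxr-/- CONT) and for Gm10639 (SD 1.34 and 1.01) and narrow for Gsta3 (SD 0.17 and 0.26). These ranks come from the same arrays, and the Gsta2 and Gm10639 probes share bases.

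**Figure D3:**
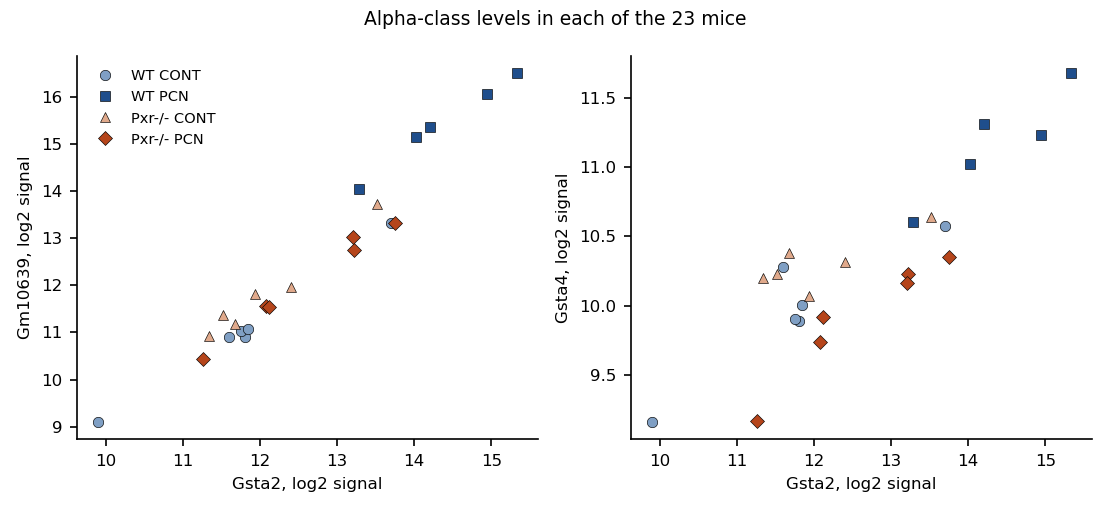
Log2 signal of Gm10639 (left) and Gsta4 (right) against that of Gsta2 in each of the 23 mice, with the groups by colour and symbol. The points of Gm10639 follow those of Gsta2 from the lowest WT CONT mouse (9.91 for Gsta2) to the highest WT PCN mouse (15.33), and the Pxr-/- PCN mice overlap the CONT mice.

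Among the theta genes, whose enzymes act on small haloalkanes and related compounds, Gstt3 and Gstt2 moved in opposite directions after PCN in WT mice and Gstt1 was not called. Gstt3 (probe at mm9 chr10:75236966-75237025, minus strand) read 13.15, 13.25, 13.45, 13.49 and 14.07 in the WT PCN mice. The WT CONT mice ran from 11.61 through a median of 11.71 to 12.54. The groups did not overlap. Gstt3 was 3.01-fold higher (1.59 ± 0.20 log2 units, SE, adjusted p = 8.33e-06), and this was called within each washing batch as well (1.63 and 1.55). The Pxr-/- values of Gstt3 ran from 11.74 to 13.43 in CONT (median 12.53) and from 12.21 to 13.04 in PCN (median 12.64), a difference of 0.08 (95% interval -0.31 to 0.46, adjusted p = 0.857). PCN effects differed between the genotypes by 1.51 (95% interval 0.95 to 2.07, adjusted p = 0.00305). It was 1.18 and 1.84 within the batches (adjusted p = 0.133 and 0.0856).

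Gstt2 has a pair of probes in this table, both on the minus strand of chromosome 10. The brighter matches the RefSeq transcript (mm9 chr10:75295206-75295265) and the dimmer a cDNA clone (mm9 chr10:75295913-75295972). No mm9 gene models were used, so whether the dimmer lies in an exon of the RefSeq transcript was not determined. Their opening bases, 1 to 30, share no run of 20 bases:
Gstt2 brighter probe: cggaacagagatagaatggtcctggttctg
Gstt2 dimmer probe: ggttctcccattagagtctagtgtcagaga
With the brighter probe the WT PCN mice read 10.82, 10.86, 11.06, 11.31 and 11.39, all below the lowest WT CONT mouse (11.47, median 11.50, highest 11.78). The difference was -0.46 (adjusted p = 0.0379), a fold change of 1.38 and not called, and with the deposited values it was -0.31 (adjusted p = 0.167). With the dimmer probe they read 8.68, 8.80, 9.74, 9.79 and 9.81, again all below WT CONT (lowest 10.32, median 10.53, highest 11.12). It was 2.45-fold lower (-1.29 ± 0.30 log2 units, SE, adjusted p = 0.00368) and called. The dimmer probe gave -0.80 in washing batch 1 (adjusted p = 0.11) and -1.87 in washing batch 2 (adjusted p = 0.0467).

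The Gstt2 probes differed in direction in Pxr-/- mice, with neither called. The brighter probe had medians of 11.17 (CONT) and 11.34 (PCN), a difference of 0.12 (adjusted p = 0.703). The dimmer had medians of 10.26 and 9.28, a difference of -0.87 (unadjusted p = 0.00647, adjusted p = 0.0736), with ranges of 8.76 to 11.08 and 8.56 to 10.25 that overlapped. It was called without Pxr-/- CONT replicate 6 (-1.11, adjusted p = 0.0158) or Pxr-/- PCN replicate 6 (-1.01, adjusted p = 0.0381). Between the genotypes the PCN effects differed by -0.58 by the brighter probe (adjusted p = 0.206, -0.73 with adjusted p = 0.035 without Pxr-/- CONT replicate 2) and -0.43 by the dimmer (adjusted p = 0.701), and neither was called. By the mean of both probes Gstt2 was 0.88 lower in WT mice and called (adjusted p = 0.00228).

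Gstt1, which shares its cluster with Gstt2 and Gstt3, had medians of 15.18 and 15.19 in WT mice (CONT, then PCN) and 15.42 and 15.38 in Pxr-/- mice. Its groups overlapped in every comparison. The PCN difference was 0.05 in WT mice (95% interval -0.17 to 0.28, adjusted p = 0.782) and -0.04 in Pxr-/- mice (95% interval -0.25 to 0.18, adjusted p = 0.89). Both intervals lie within the fold limit of 1.5.

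The pi genes, whose enzyme is the main transferase of male mouse liver, showed no called difference. Gstp1 had medians of 15.40 and 15.37 in WT mice (CONT, then PCN) and 15.12 and 15.24 in Pxr-/- mice, and its PCN difference was -0.10 in WT mice (95% interval -0.36 to 0.15, adjusted p = 0.585) and 0.04 in Pxr-/- mice (95% interval -0.20 to 0.27). With the deposited values the sign in WT mice turned (0.14), where the median of all probes moved up as well. Gstp2 had medians of 17.45, 17.43, 17.45 and 17.38 in the same order, with PCN differences of -0.02 (95% interval -0.15 to 0.10, adjusted p = 0.841) and -0.09 (95% interval -0.21 to 0.03, adjusted p = 0.365), and turned to 0.05 in WT mice with the deposited values. All these intervals lie within the fold limit of 1.5. These transcripts are near-copies, and the probe of Gstp1 (mm9 chr19:4037306-4037365) and that of Gstp2 (mm9 chr19:4040283-4040342) share no run of 20 bases. This does not show that they read the genes apart, since each probe could still bind both transcripts. Such binding was not tested.

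Gstk1, the mitochondrial and peroxisomal transferase, was lower after PCN in both genotypes by less than the fold limit. In WT mice the PCN signals were 13.57, 13.57, 13.60, 13.65 and 13.87, against 13.81 at the lowest, 13.92 at the median and 14.28 at the highest in CONT, and 4 of 5 PCN mice lay below all CONT mice. In Pxr-/- mice the 6 PCN mice (13.56 to 13.91) all lay below the 6 CONT mice (14.01 to 14.16). The differences were -0.31 (adjusted p = 0.0106) and -0.32 (adjusted p = 0.0206), fold changes of 1.24 and 1.25. The difference between the genotypes was 0.01 (95% interval -0.24 to 0.25). Gstk1 was the only member at an adjusted p of 0.05 or less in Pxr-/- mice. With the deposited values the differences were -0.10 (adjusted p = 0.518) and -0.27 (adjusted p = 0.11).

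**Figure D4:**
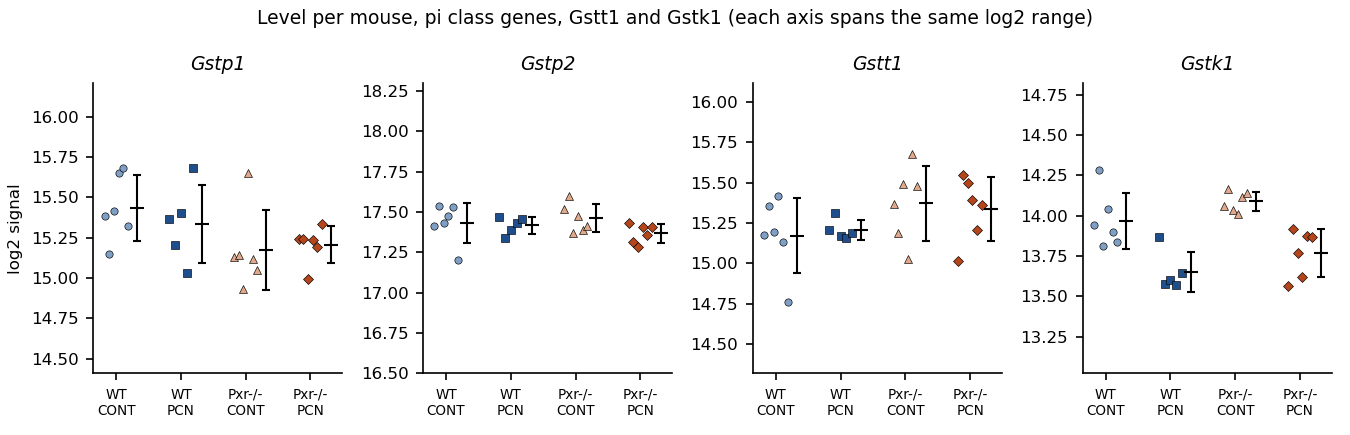
Log2 signal (vertical axis, the same span in every panel) of each mouse by group for Gstp1, Gstp2, Gstt1 and Gstk1; the dash and bar are the mean and SD (n = 6, or 5 for WT PCN). The groups of Gstp1, Gstp2 and Gstt1 overlap, whereas all 6 Pxr-/- PCN mice lie below the 6 Pxr-/- CONT mice for Gstk1.

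Without PCN, limma called 0 members between the genotypes (0.252% of all genes higher and 0.0855% lower in Pxr-/- CONT), and 3 had an unadjusted p below 0.05. These were Gstt3 (0.61 higher in Pxr-/- CONT, 95% interval 0.22 to 0.99, adjusted p = 0.192), Gstt2 by its brighter probe (-0.36, adjusted p = 0.36) and Gstp1 (-0.26, adjusted p = 0.393). For Gstt3, 3 of the 6 Pxr-/- CONT mice lay above all WT CONT mice. For Gstt2, 5 of the 6 Pxr-/- CONT mice lay below all WT CONT mice. Over all genes the split here was 53 higher and 18 lower, and 30 and 40 with the deposited values, whose median probe lay at -0.11 against -0.01.

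The order of the group means set the WT PCN group apart for Gsta2, Gsta4 and Gstt3. For Gsta2 the means rose from WT CONT (11.77) through Pxr-/- CONT (12.07) and Pxr-/- PCN (12.61) to WT PCN (14.36). For Gsta4 the order was Pxr-/- PCN (9.93), WT CONT (9.97), Pxr-/- CONT (10.31) and WT PCN (11.17), and for Gstt3 it was WT CONT (11.94), Pxr-/- CONT (12.55), Pxr-/- PCN (12.63) and WT PCN (13.48). The lower neighbours in each order overlapped in range, and those that were tested directly (the genotypes without PCN, and PCN in Pxr-/- mice) did not pass the test. The lowest WT PCN mouse lay below the highest Pxr-/- mouse for Gsta2 (13.28 against 13.75), Gsta4 (10.60 against 10.64) and Gstt3 (13.15 against 13.43). WT PCN was not tested directly against either Pxr-/- group.

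The other glutathione genes were taken from lists drawn up by function. In WT mice limma called 5 of the 13 measured transferases of other classes higher (4.25% of all genes) and 0 lower (2.83%). All 5 were mu-class genes: Gstm4 (2.45), Gstm2 (2.41), Gstm3 (1.68), Gstm1 (1.66) and Gstm6 (0.90), with adjusted p of 2.18e-09 to 1.19e-04. The median of the 13 was 0.27, against -0.02 over all genes tested. The difference between the genotypes was called for the same 5 (0.883% of all genes), for Gstm6 by its dimmer probe (1.72). In Pxr-/- mice 1 of the 13 was called higher (1.6% of all genes), and this was Gstm2 (0.78, adjusted p = 0.0162). Without PCN, 2 of the 13 were called higher in Pxr-/- CONT than in WT CONT (0.252% of all genes). Gstm2 was 1 of these (0.91, adjusted p = 0.0257), and 6 of the 13 had an unadjusted p below 0.05. Mu-class transcripts are near-copies too, and binding across them was not tested.

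Of 16 measured genes of glutathione synthesis and turnover, 2 rose and 1 fell in WT mice, where 4.25% and 2.83% of all genes did, and the count of 3 ran from 0 to 6 over the other settings. Gsr, which reduces oxidised glutathione, rose by 0.79 (adjusted p = 4.12e-06), and its difference between the genotypes was 0.81 (adjusted p = 9.44e-04). Ggct, which breaks down gamma-glutamyl peptides, rose by 0.64 (adjusted p = 0.0019) and lay below the fold limit when WT CONT replicate 5 (0.57) or replicate 4 of WT PCN (0.58) was left out. Cbs, which makes the cysteine precursor cystathionine, fell by 0.83 (-0.83, adjusted p = 5.27e-05). The subunits of the enzyme that sets the rate of glutathione synthesis were not called, and its catalytic subunit Gclc was at -0.47 (adjusted p = 0.0369, fold below 1.5). The list's median was -0.01.

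Of 14 measured genes listed as glutathione-using enzymes, 3 rose and 0 were called lower by limma, against 4.25% and 2.83% of all genes. The count ran from 1 to 6 over the other settings. The 3 were the endoplasmic reticulum peroxidases Gpx7 (1.23, adjusted p = 2.36e-06) and Gpx8 (0.72, adjusted p = 0.00293) and the glutaredoxin Glrx (0.59, adjusted p = 0.00387). Use of glutathione by these enzymes was not measured. Glrx lay at the fold limit and lost its call without any 1 of 9 arrays. The difference between the genotypes was called for Gpx7 (0.80, adjusted p = 0.0307), which lost that call without any 1 of 10 arrays. The list's median was 0.08. Of 11 measured genes of conjugate export and mercapturate formation, 1 was called in WT mice and 1 for the difference between the genotypes. Both calls were of Abcc3, which carries conjugates out of the hepatocyte into blood (1.38, adjusted p = 2.88e-07, difference between the genotypes 0.99, adjusted p = 0.00366). The list's median in WT mice was -0.08. Among all genes 4.25% were called higher and 2.83% lower in WT mice. Over the other settings 1 to 5 genes of this list were called in WT mice, and Abcc2, the bile-side conjugate pump, was at 0.31 (adjusted p = 0.015, fold below 1.5). Without PCN, Ccbl2 of this list was called lower in Pxr-/- CONT than in WT CONT, where 0.0855% of all genes were. Its brighter probe gave -0.70 (adjusted p = 0.0327).

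Of 8 NRF2 pathway reference genes, a set known to respond to electrophiles and oxidants, 2 rose in WT mice, where 4.25% of all genes did. The count ran from 0 to 4 over the other settings and also when 1 array was left out (0 without WT PCN replicate 4, 4 without WT CONT replicate 3). These were Srxn1 (0.61, adjusted p = 1.46e-04, difference between the genotypes 0.77, adjusted p = 0.00266) and Hmox1 (0.59, adjusted p = 0.0304). Nqo1 was at 0.42 (adjusted p = 0.053). The list's median was 0.42. Srxn1 was not called without WT PCN replicate 4 (0.56), nor Hmox1 without any 1 of 5 arrays. In Pxr-/- mice 0 genes of the synthesis, glutathione-using and export lists were called by limma, with 7 of 16, 5 of 14 and 5 of 11 at an unadjusted p below 0.05. Of the 8 NRF2 reference genes, 1 was called lower there, where 0.95% of all genes were, and 4 had an unadjusted p below 0.05. The called gene was Nfe2l2, which encodes NRF2 itself, by its dimmer probe only (-0.66, adjusted p = 0.00451). By the brightest probe of each gene, the changes of this list in Pxr-/- mice ran from -0.16 to 0.65.

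**Figure D5:**
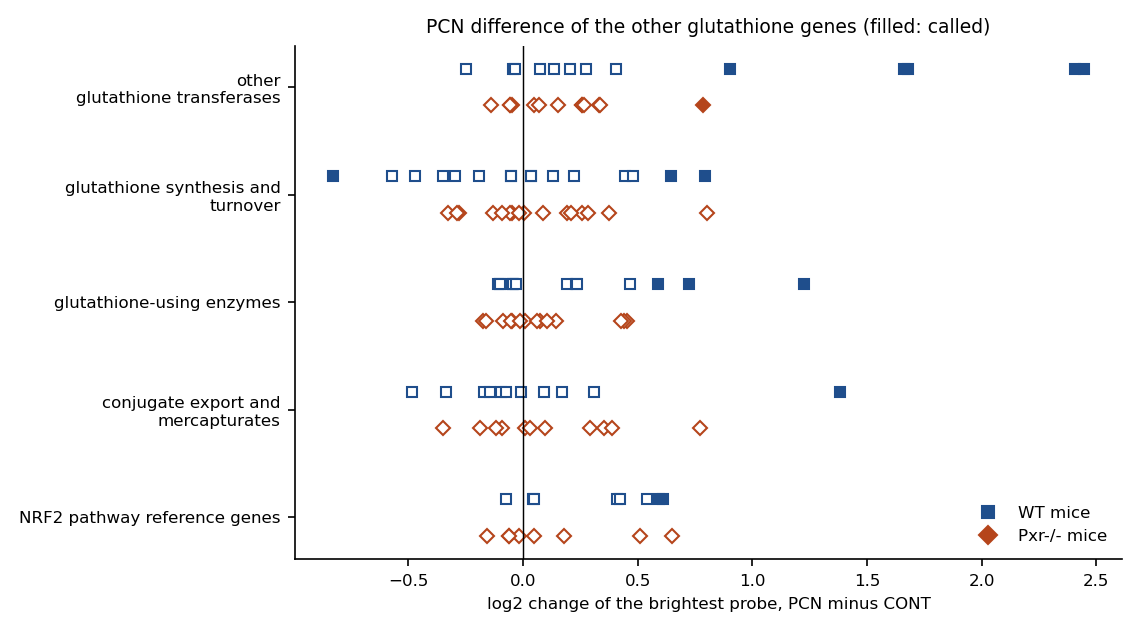
Log2 change after PCN (horizontal axis, PCN minus CONT, brightest probe) of each measured gene in 5 lists of other glutathione genes, in WT mice (squares, upper row of each list) and Pxr-/- mice (diamonds, lower row); filled symbols were called. The 5 filled squares of the other transferases are mu-class genes (0.90 to 2.45), and the only filled diamond is Gstm2 (0.78).

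The genes around the member clusters were counted in the same way. The 3 nearest measured genes on each side of the 5 clusters made 30 genes in all. In WT mice 1 was called higher (Dppa5a, 0.78) and 1 lower (Tram2, -0.73), where 4.25% and 2.83% of all genes were. For the difference between the genotypes limma called 0 (0.883% of all genes higher, 0.29% lower). In Pxr-/- mice 1 was called lower, Gm4956 (-1.13, adjusted p = 0.0446), where 0.95% of all genes were. The order of genes was taken from GRCm38.p6.

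The genes with the pattern most like that of a called member were ranked by the root mean square difference of log2 signals over the 23 arrays. Each gene was centred on its WT CONT mean, and 15080 named genes were candidates. The members and all other genes with a name beginning with Gst, the mu-class genes included, were left out of the candidates. Nearest to Gsta2 were Atp6v0d2 (0.65), Bmper (0.66) and Sulf2 (0.79), against a median of 1.58 over all candidates. Nearest to Gsta4 were H2bfm (0.25), Abcb1a (0.38), which encodes a drug efflux pump, and Tet3 (0.38), against a median of 0.72. Nearest to Gstt3 were 4931406C07Rik (0.39), Abcc3 (0.39) and the cytochrome P450 Cyp3a25 (0.39), against a median of 0.97. Nearest to Gstt2 by its brighter probe, which was itself not called, were Csrp2 (0.21), Pld2 (0.22) and Ap1g2 (0.23), against a median of 0.45.

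Markers of other liver cells were set beside these results, since in whole liver fewer cells of a type and less RNA per cell cannot be told apart. Of the 7 measured cholangiocyte markers, Sox9 was called higher in WT mice (0.76, adjusted p = 0.0109), and the log2 of their summed signal ran from 10.73 to 12.29 in WT CONT and from 11.81 to 13.01 in WT PCN. In Pxr-/- mice it ran from 11.01 to 11.83 in CONT and from 11.32 to 12.58 in PCN, with 0 called by limma and 4 at an unadjusted p below 0.05. Of the 8 stellate cell markers only Col1a1 was called, higher in WT mice (3.17, adjusted p = 2.3e-05) and in Pxr-/- mice (1.96, adjusted p = 0.00628). The median of the 8 was 0.09 in WT mice (lowest -0.47), with 4 at an unadjusted p below 0.05. It was 0.06 in Pxr-/- mice, with 1 below that p. The summed signal of the list ran from 14.49 to 15.27 in WT CONT and from 14.71 to 15.08 in WT PCN. In WT mice limma called 0 of the 8 Kupffer cell, 8 endothelial, 5 lymphocyte and 6 red blood cell markers measured, with 0, 4, 1 and 1 at an unadjusted p below 0.05. Of the 8 hepatocyte markers, limma called 0 in WT mice, with 1 at an unadjusted p below 0.05, and Apoa1 was called higher in Pxr-/- mice (0.62, adjusted p = 9.55e-04). Ttr was called lower for the difference between the genotypes by a dimmer probe (-0.95, adjusted p = 0.00358). The log2 of their summed signal ran from 19.91 to 20.24 in WT CONT, 19.95 to 20.07 in WT PCN, 20.04 to 20.14 in Pxr-/- CONT and 20.05 to 20.18 in Pxr-/- PCN. The part of these cells in the differences of the members was not tested.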

How the data were processed

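Liver RNA of 23 mice was labelled with 1 dye and hybridised to Agilent Sureprint G3 Mouse GE v2 arrays. Per the file headers, scanner intensities were extracted with Agilent Feature Extraction 10.10.1.1, and the deposited median signal was used here as intensity before normalisation. A table of log2 values deposited by the authors (32574 probes) served as an alternative. Its columns correlated with the scanner values at 0.9997 to 0.9998 and had medians of 7.54 to 8.01, so they were log2 signals without quantile normalisation between arrays.

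Outlier spots were set aside and spots of a probe averaged. Probes well above background on over 50% of the arrays of at least 1 group were kept (32087) and quantile normalised. limma 3.58.1 (R 4.3.3) was fitted to all arrays with the group and the washing batch, with 18 residual degrees of freedom and Benjamini-Hochberg adjustment over all probes. A gene was counted once if any of its probes was called, and a member was read from its brightest probe. The code was tested on simulated data. The number of arrays limits the precision.

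The members and lists were chosen with earlier results of these data known. All members with all probes were named, and of each list the called genes of largest change. The other settings were deposited values, processed signals scaled to the 75th percentile, normexp background with an offset of 50, other filters and folds, no batch term, slide or replicate blocks, each batch alone and each array left out. A probe for Gsta1 was not analysed here.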

Additional observations from a re-analysis of the deposited data

Results flagged for a closer look

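In 7 of the 52 checks, each of 1 probe in 1 group of mice, 1 mouse lay far from the others. Chance gives about 1 in 20 for a single check. The probes were read from the same mice, and some flagged probes belong to the same gene. The checks were therefore not independent, and the count of 7 cannot show an excess over chance. For Gm10639 the Pxr-/- CONT replicate 2 was highest at 13.72 (next 11.97). For Gsta3 the WT CONT replicate 2 was highest by the brightest probe, at 17.34 (next 17.02), and by the next probe, at 17.15 (next 16.77), and the Pxr-/- CONT replicate 5 by the latter probe, at 17.09 (next 16.82). Gstk1 was highest in WT PCN replicate 1 at 13.87 (next 13.65), and Gstp1 in Pxr-/- CONT replicate 4 at 15.65 (next 15.14). Gstp2 was lowest in WT CONT replicate 6 at 17.20 (next 17.42).

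The PCN difference was larger in WT than in Pxr-/- mice by limma's test of the difference for Gm10639 (4.11), Gsta4 (1.58), Gstt3 (1.51), Abcc3 (0.99), Gsr (0.81), Gpx7 (0.80) and Srxn1 (0.77).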

How the results depend on the processing

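The members called numbered 4 in WT mice, 0 in Pxr-/- mice, 2 for the difference and 0 between the genotypes. The count in WT mice was 2 within washing batch 2, and without a fold limit it was 6, adding Gsta3 and Gstk1. That in Pxr-/- mice was 1 without a fold limit (Gstk1), and that for the difference was 0 within batch 1 and 0 within batch 2, where fewer arrays were fitted. Without 1 array each the counts ran from 4 to 5, 0 to 1 and 2 to 3. With the replicate number as a block (replicate block) the counts were 4, 0, 2 and 0, and Gsta2 was at 2.39, Gsta4 at 1.14 and Gstt3 at 1.55 in WT mice. Arrays of the same number correlated at -0.17 to 0.61, and 7 of the 23 arrays correlated most with an array of the same number. The labels do not say whether the numbers pair the mice, and these values do not settle it. Of 599 other values of the member probes and Gm10639, 559 kept direction and call, 9 lost the call, all within single batches, 2 gained it and 29 turned direction. None of the values that turned belonged to a called difference.

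In Pxr-/- mice the values that turned were, within batch 1, Gm10639 (-0.57), Gsta2 (-0.0789), Gsta3 (0.0811), Gstp1 (-0.17), Gstt1 (0.045) and Gstt2 (-0.0942), and within batch 2 Gstt3 (-0.29) and the second Gsta3 probe (-0.0151). With processed signals the second Gsta3 probe (-0.0483) and Gstp1 (-0.0137) turned, with deposited values Gstt1 (0.0065), and with the mean of both probes Gstt2 (-0.37). In WT mice Gstp1 turned with deposited values (0.14) and processed signals (0.0052), Gstp2 with deposited values (0.0489), and the dimmest Gsta3 probe within batch 2 (0.35). For the difference, Gstp1 turned with deposited values (0.087), processed signals (0.0189) and batch 1 (0.0315), Gstp2 with processed signals (-0.0065) and batch 2 (-0.0267), and Gstk1 within batch 2 (-0.16). Within batch 1 the dimmest Gsta3 probe (-0.61), Gstt1 (-0.0273) and the dimmer Gstt2 probe (0.34) turned. Between the genotypes Gstp2 turned with deposited values (-0.0272) and batch 2 (-0.0125), and within batch 1 the dimmest Gsta3 probe (-0.0861) and the dimmer Gstt2 probe (0.14). The cause was not tested.

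Without 1 array each, values that crossed 0 ran from -0.12 to 0.69 (Gsta2, genotype), -0.0468 to 0.0893 (Gstt1, WT), -0.0595 to 0.0062 (Gstp2, WT) and -0.0117 to 0.0589 (Gstp2, genotype). In Pxr-/- mice they ran from -0.0222 to 0.0593 (second Gsta3 probe), -0.12 to 0.0195 (Gsta3), -0.0061 to 0.13 (Gstp1), -0.0912 to 0.0158 (Gstt1) and -0.0589 to 0.21 (Gstt3). For the difference they ran from -0.16 to 0.21 (dimmest Gsta3 probe), -0.0498 to 0.0658 (Gstk1) and -0.011 to 0.14 (Gstt1).

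Over all genes, 1490 were called in WT mice, against 460 above a fold of 2, 5962 without a fold limit, 2405 with processed signals and 913 within batch 2. In Pxr-/- mice 537 compare with 158 above a fold of 2, 1743 without a fold limit, and 67 and 111 within the batches. For the difference 247 compare with 127, 385, 101 and 118, and between the genotypes 71 with 26, 118 and 12 (batch 1), and 47 when only those groups were fitted.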
